A study of Homo sapiens with 33 samples.

Results

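The 43 genes described here are interferon-stimulated genes and sensors of viral RNA, chosen by symbol from the 58735 genes of the count table of a bulk RNA-seq series. All 43 symbols were found. The series followed H9-FOXL2-DDdCas9VP192 human embryonic stem cells, clone 24, through gonadal differentiation. H9 is an established embryonic stem cell line, and the clone carries a deactivated Cas9 fused to the transcriptional activator VP192 and guide RNAs that direct it to the promoter of FOXL2, a transcription factor of the ovary. The 33 libraries fell into 11 groups of 3 technical replicates, taken from 1 differentiation of 1 clone: cells at day 4, before induction, and CTRL and IND cells every 2 days from day 6 to day 14. IND cells received doxycycline (DOX), which switches on transcription of the activator, and trimethoprim (TMP), which stabilises the protein, from day 4 onwards. CTRL cells and day 4 cells carried the same activator and guides but received neither drug. The rise of FOXL2, the activator protein itself and the presence of DOX and TMP thus cannot be told apart. The replicates were wells of the same differentiation, and every p-value below measures the spread between such wells.

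Interferons are secreted proteins that cells release when they detect a virus. They bind receptors that activate the kinases JAK1 and TYK2 and factors that include STAT2 and IRF9, and these switch on a large set of interferon-stimulated genes whose products block viral entry, translation and replication. Viral RNA is detected by toll-like receptor 3 (TLR3) in endosomes and by the helicases RIG-I (DDX58) and MDA5 (IFIH1) in the cytoplasm. IRF1 and related factors can bind the promoters of many of these genes directly, at a repeat of GAAA known as the interferon-stimulated response element. Pluripotent stem cells are known to express some interferon-stimulated genes without interferon and to respond weakly to it, and the response is gained as cells differentiate.

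The libraries had between 23940837 and 51912815 counts, with a median of 41420455. FOXL2 itself, in counts scaled to the size of the library (CPM), ranged from 147.6 to 577.3 CPM across the 15 IND libraries, and in the 18 others it never exceeded 0.388 CPM. GATA4, a coelomic epithelial marker of the differentiating gonad, was at 54.9 ± 5.67 CPM (SD, n = 3) at day 4 and at 322 ± 27.8 CPM in day 14 CTRL, while POU5F1, a pluripotency marker, went from 71.9 ± 3.39 to 0.107 ± 0.0262 CPM. Day 10 IND replicate 2 stood apart from the other libraries of its group. It was the shallowest of the 33, with 23940837 counts, and it had 1814 CPM of LIN28A, an RNA-binding protein of stem cells, against 279 and 343 CPM in replicates 1 and 3. It had 19254 genes with at least 1 count, against 23358 to 29002 in the other 32 libraries, and 0.691% of its counts were mitochondrial, against 1.14 to 4.28%. The members whose call at day 10 changed without it are named.

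The members lay on 18 chromosomes, with several families side by side. On chromosome 10 of GRCh38, IFIT2, IFIT3, IFIT1 and IFIT5 followed each other on the plus strand between 89283694 and 89421001. OAS1, OAS3 and OAS2 were neighbours on chromosome 12, MX2 and MX1 on chromosome 21, SAMD9 and SAMD9L on chromosome 7, HERC6 and HERC5 on chromosome 4, IFI44L and IFI44 on chromosome 1 and CMPK2 and RSAD2 on chromosome 2. The 6 members that rank highest below by the number of days called were TLR3 (ENSG00000164342, chr4:186069152-186088069, plus strand), IFIT3 (ENSG00000119917, chr10:89327894-89340971, plus strand), IRF1 (ENSG00000125347, chr5:132481609-132490798, minus strand), IFIT1 (ENSG00000185745, chr10:89392546-89406486, plus strand), OAS3 (ENSG00000111331, chr12:112938352-112973249, plus strand) and IFI6 (ENSG00000126709, chr1:27666061-27672218, minus strand). Because the libraries were non-directional, counts of a gene that shares exonic bases with another gene are uncertain. This applied to 13 members, most of all to IRF9 with 48.4% of its exonic bases shared, XAF1 with 38.3% and IRF1 with 22.0%.

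The promoters of those 6 genes are shown because they are the stretches in which factors of the interferon pathway would bind. Each window is 300 bases of RefSeq on GRCh38.p14, from 250 bases before to 50 bases after an annotated transcription start, 5′ to 3′ on the strand of the gene. Capitals mark 2 copies of GAAA separated by 2 bases of any kind, or of TTTC where the repeat lies on the other strand. IFIT3 has 2 windows, 1 for each of 2 annotated starts.
TLR3, chr4:186068906-186069205, plus strand: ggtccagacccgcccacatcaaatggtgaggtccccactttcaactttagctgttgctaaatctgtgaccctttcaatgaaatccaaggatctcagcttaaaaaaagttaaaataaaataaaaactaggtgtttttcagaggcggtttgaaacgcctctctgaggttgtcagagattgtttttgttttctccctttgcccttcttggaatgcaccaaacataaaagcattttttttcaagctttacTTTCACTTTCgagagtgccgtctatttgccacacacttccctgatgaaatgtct
IFIT3, chr10:89327747-89328046, plus strand: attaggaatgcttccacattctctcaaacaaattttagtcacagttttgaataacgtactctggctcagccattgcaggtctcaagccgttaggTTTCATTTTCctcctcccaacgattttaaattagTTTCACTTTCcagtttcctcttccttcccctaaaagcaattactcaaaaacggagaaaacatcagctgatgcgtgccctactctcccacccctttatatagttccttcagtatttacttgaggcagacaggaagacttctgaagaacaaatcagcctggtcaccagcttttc
IFIT3, chr10:89332279-89332578, plus strand: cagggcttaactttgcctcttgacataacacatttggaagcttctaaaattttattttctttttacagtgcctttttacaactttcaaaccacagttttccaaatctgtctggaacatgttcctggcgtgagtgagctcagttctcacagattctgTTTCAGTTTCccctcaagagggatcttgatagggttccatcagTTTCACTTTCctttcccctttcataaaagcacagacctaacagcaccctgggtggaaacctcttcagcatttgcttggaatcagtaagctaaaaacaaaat
IRF1, chr5:132490724-132491023, minus strand: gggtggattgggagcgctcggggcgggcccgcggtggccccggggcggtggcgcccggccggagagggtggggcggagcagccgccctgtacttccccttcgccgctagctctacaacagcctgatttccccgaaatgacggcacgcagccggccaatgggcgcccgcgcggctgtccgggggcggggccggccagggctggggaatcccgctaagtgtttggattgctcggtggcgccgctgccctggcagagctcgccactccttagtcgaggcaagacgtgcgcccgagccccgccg
IFIT1, chr10:89392373-89392672, plus strand: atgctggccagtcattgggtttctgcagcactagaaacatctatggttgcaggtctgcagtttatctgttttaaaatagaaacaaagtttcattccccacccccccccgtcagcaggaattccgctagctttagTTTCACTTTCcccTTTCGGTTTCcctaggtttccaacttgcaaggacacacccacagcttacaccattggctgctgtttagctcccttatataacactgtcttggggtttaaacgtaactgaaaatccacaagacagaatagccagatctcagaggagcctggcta
OAS3, chr12:112938224-112938523, plus strand: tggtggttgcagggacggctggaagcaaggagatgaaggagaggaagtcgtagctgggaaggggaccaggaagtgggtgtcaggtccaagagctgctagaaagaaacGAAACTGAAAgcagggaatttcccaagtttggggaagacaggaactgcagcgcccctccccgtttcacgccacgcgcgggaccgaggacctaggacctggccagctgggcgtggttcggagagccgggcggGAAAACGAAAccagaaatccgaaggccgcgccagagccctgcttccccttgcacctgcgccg
IFI6, chr1:27672143-27672442, minus strand: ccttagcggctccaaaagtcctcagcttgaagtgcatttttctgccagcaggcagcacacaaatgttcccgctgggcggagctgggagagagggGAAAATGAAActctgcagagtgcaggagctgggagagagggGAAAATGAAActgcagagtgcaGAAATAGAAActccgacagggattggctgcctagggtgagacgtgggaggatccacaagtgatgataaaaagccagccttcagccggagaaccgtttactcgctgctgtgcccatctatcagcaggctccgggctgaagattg
In these windows TLR3 held 1 repeat, which began 4 bases before the start, IFI6 held 3, IFIT1 and OAS3 held 2 each and both windows of IFIT3 held 2. The window of IRF1 held none, which says only that these letters are not in it.

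RefSeq promoters were matched for 35 of the 43 members, DDX58 under its newer symbol RIGI. IFIT2, DHX58, MX2, OAS2, OASL, IRF7, TRIM22 and USP18 were not in the table used. Of the 35, 22 (62.9%) held the repeat in a window, against 4.38% of the 27305 gene symbols in the table and 3.57% of its 35116 windows. With 1 mismatch allowed among the 8 fixed letters, 31 of the 35 members and 37.7% of all symbols held it. The 44 matches in member windows began a median of 99 bases before the start and at most 196 bases before it. Of them 1, in MX1, began after it. The windows reach only 250 bases before and 50 bases after a start, so these positions do not show a clustering near it. Overlapping windows of a gene, as for IFI27 and IFI44, count the same stretch more than once. The repeat was found in 14 of the 19 members with a promoter that were called higher in IND on at least 1 day and in 8 of the 16 that were called on no day. IFIT5 and HERC5, with 3 repeats each, were among the latter, and IRF1, IFI35, STAT2, TRIM25 and OAS1 were the members of the former without it.

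Compared per length of transcript, in FPKM over all 33 libraries, the members covered a wide range of levels. BST2, which encodes tetherin, the membrane protein that holds budding virus on the cell surface, had the highest mean at 224 FPKM (158 to 413 in single libraries). LGALS3BP, a secreted glycoprotein that binds galectins, followed at 38.3 FPKM, and IFI6, a mitochondrial protein that protects cells from death, at 21.2 FPKM. ISG15, a ubiquitin-like protein that is attached to other proteins, had 13.5 FPKM, STAT2 9.82 FPKM and IFI16, a DNA sensor, 8.61 FPKM. BST2 exceeded LGALS3BP in every library, whereas the ranges of IFI6 (2.39 to 107 FPKM) and ISG15 (5.7 to 49.9 FPKM) overlapped. TLR3 (0.232 FPKM), IFIH1 (0.22 FPKM) and OAS3 (0.105 FPKM) were among the lowly expressed members. The lowest were OAS2 at 0.0114, XAF1 at 0.0034 and OASL at 0.00149 FPKM, and OASL had no more than 2 counts in any library.

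To ask which members changed with FOXL2 induction, IND was compared with CTRL of the same day. Every call was in the direction of higher expression in IND. A gene was called when its adjusted p was under 0.05 in edgeR's quasi-likelihood test, adjusted over all genes tested that day. Of the 43 members, 23 were called higher on at least 1 day, 18 on at least 2 days, 9 on at least 3 days and 4 on 4 days. The remaining 20 were called on no day, and 5 of them (IFI44, OAS2, OASL, SAMD9L and XAF1) had too few counts to be tested on any day. How many of all genes were called on as many days was not counted. These counts over days thus have no share of all genes beside them, and the shares by day are given below. These are bulk samples, so a larger share of expressing cells and more RNA per cell cannot be told apart.

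At day 6, 5 of 34 tested members were called higher, against 1.29% of all genes tested, and 0 were called lower, against 2.37%. The 5 were TLR3, IFIT1, IRF1, TRIM25 and BST2. At day 8, 20 of 34 members were called higher, where 7.49% of all genes were, and 0 lower, where 6.67% of all genes were. At day 10 the count was 3 of 35 members higher (0.856% of all genes), with 0 lower (1.18% of all genes). At day 12, 14 of 38 members were called higher (2.38% of all genes) and 0 lower (3.04% of all genes), and at day 14, 12 of 37 were called higher (3.21% of all genes) and 0 lower (5.22% of all genes). A member tested on a day had passed a filter on low counts, which a gene high in IND alone can pass, so these counts are descriptions. The absence of lower calls held at an unadjusted p under 0.05, at which 0 members were lower on any day, and in DESeq2, which called 0 members lower. Across 96 settings, counting each day and the mean over days, the largest number of members called lower was 1, at day 14 without a filter on low counts.

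The median log2 fold change of the tested members on the 5 days in turn was 0.48, 1.03, 0.87, 1.07 and 0.59, while the median of all genes was near 0 on each day. At day 6, 33 of the 34 tested members had a log2 fold change above 0, and at day 12, 36 of 38 had. The map of log2 fold changes by member and day shows where the calls fell.

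**Figure D1:**
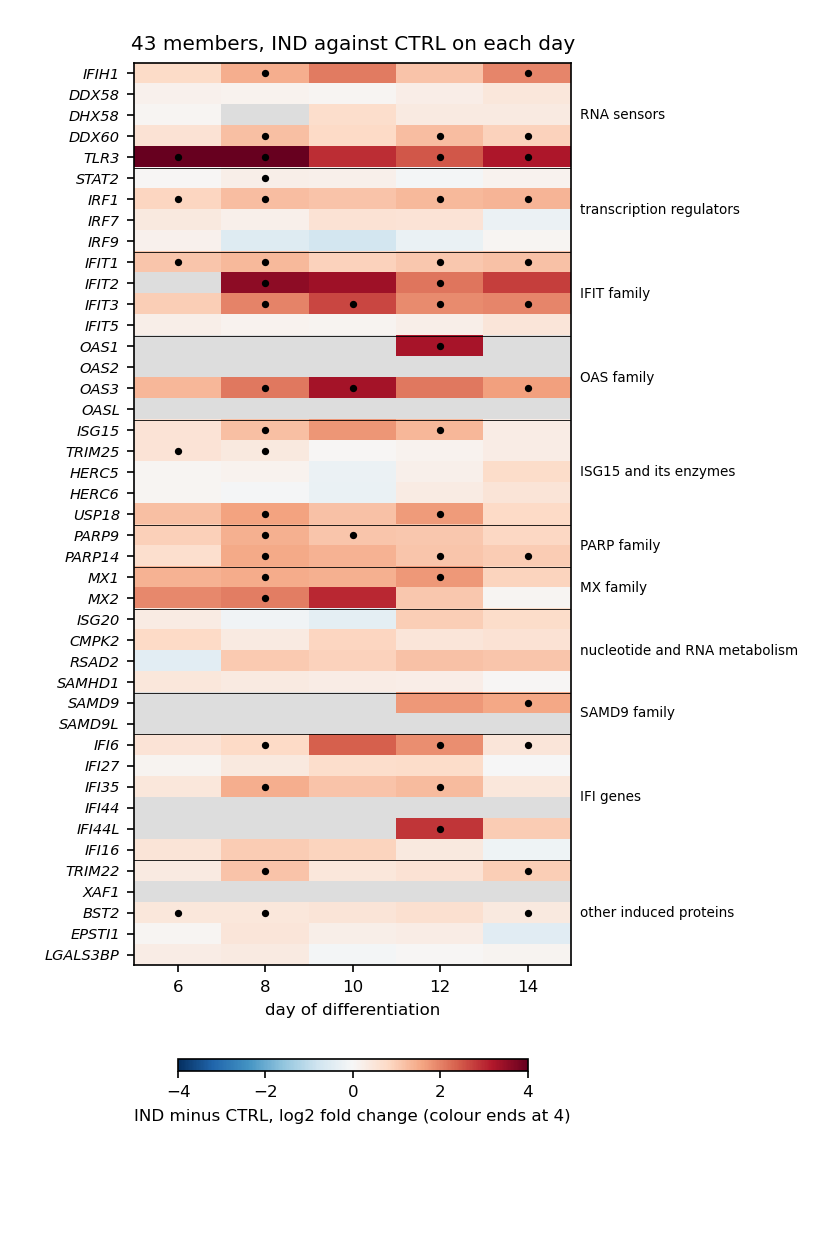
Log2 fold change of IND against CTRL for the 43 members (rows, by role) on the 5 days (columns), with a dot for an adjusted p under 0.05 and grey where a member was not tested. Most cells are on the higher side, the day 8 column holds 20 dots and the day 10 column 3, and TLR3 has the strongest colour at days 6 and 8.

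Among the RNA sensors, TLR3 changed most. At day 4 its level was 0.109, 0 and 0 CPM. At day 6, 2 days after the start of induction, it was 0.0605, 0.16 and 0.0481 CPM in CTRL and 3.14, 1.74 and 1.7 CPM in IND. Each IND library was more than 10 times above each CTRL library, and the difference was 4.59 ± 0.50 (SE) on the log2 scale, or 24-fold (adjusted p = 4.68e-05 in edgeR). The CTRL libraries held 2, 6 and 2 counts of TLR3 at day 6 and 4, 3 and 5 at day 8, so the folds of both days rest on few reads. At day 8 the levels were 0.0888, 0.0722 and 0.134 CPM in CTRL and 2.16, 2.89 and 6.05 CPM in IND (5.22 ± 0.51, 37.4-fold, adjusted p = 1.07e-04). At day 10 they were 0.341, 0.274 and 0.299 CPM in CTRL and 3.46, 0.346 and 3.33 CPM in IND. IND replicate 2 lay just above the CTRL libraries and the other IND libraries far above both, and the difference was not called (2.96 ± 0.83, adjusted p = 0.152), and without that library it was (3.46 ± 0.27, adjusted p = 1.35e-06). TLR3 then stood at 0.696, 0.396 and 0.43 CPM in CTRL and 2.86, 1.86 and 4.01 CPM in IND at day 12 (2.50 ± 0.37, adjusted p = 0.00727) and at 0.214, 0.386 and 0.934 CPM in CTRL and 4.05, 3.65 and 5.87 CPM in IND at day 14 (3.22 ± 0.43, adjusted p = 7.29e-04). The groups did not overlap on any of the 5 days, and CTRL reached 0.934 CPM in 1 library at day 14. The effect was not called as differing between days (interaction adjusted p = 0.289).

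IFIH1, which encodes MDA5, the sensor of long double-stranded RNA, had low levels that overlapped at day 6, with 0.0605, 0.186 and 0.457 CPM in CTRL and 0.134, 0.401 and 0.68 CPM in IND. At day 8 it had 0.555, 0.337 and 0.695 CPM in CTRL and 1.75, 1.29 and 1.24 CPM in IND, with no overlap (1.44 ± 0.35, adjusted p = 0.0183). At day 14 the levels were 1.07, 0.492 and 0.691 CPM in CTRL and 2.59, 2.8 and 3.51 CPM in IND (1.96 ± 0.32, adjusted p = 0.00162). In between, at day 10, IFIH1 had 0.362, 0.685 and 0.419 CPM in CTRL and 2.64, 1.12 and 2.35 CPM in IND (adjusted p = 0.11, or 1.21e-04 without IND replicate 2), and at day 12 it had 0.791, 1.61 and 0.816 CPM in CTRL and 1.92, 3.57 and 1.52 CPM in IND, where CTRL and IND overlapped (adjusted p = 0.166). DDX60, a helicase that promotes signalling by the RIG-I-like sensors, was called at days 8, 12 and 14. It had 2.06, 1.83 and 1.5 CPM in CTRL and 3.49, 4.25 and 4.64 CPM in IND at day 8 (1.21 ± 0.22, adjusted p = 0.00351). At day 12 it had 2.82, 2.31 and 2.9 CPM in CTRL and 4.54, 8.78 and 5.46 CPM in IND (1.23 ± 0.27, adjusted p = 0.0367) and 4.17, 3.27 and 3.05 CPM in CTRL and 6.52, 6.43 and 6.92 CPM in IND at day 14 (0.92 ± 0.19, adjusted p = 0.0086), with no overlap on either day. At day 6 it had 2.12, 1.78 and 2.64 CPM in CTRL and 3.91, 2.78 and 2.92 CPM in IND and 2.13, 2.6 and 2.41 CPM in CTRL and 4.45, 4.23 and 3.58 CPM in IND at day 10, and neither difference was called (adjusted p = 0.31 and 0.182). Without IND replicate 2 that of day 10 was (0.75 ± 0.20, adjusted p = 0.0176).

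The other RIG-I-like sensors were called on no day. DDX58, which encodes RIG-I, the sensor of RNA with a 5′ triphosphate, had 7.26, 6.94 and 7.16 CPM in CTRL and 9.16, 8.2 and 6.21 CPM in IND at day 6 and 10.1, 7.63 and 7.73 CPM in CTRL and 7.91, 7.69 and 12.2 CPM in IND at day 8, with the libraries intermixed. At day 10 it had 8.84, 9.91 and 7.94 CPM in CTRL and 10.8, 7.13 and 9.97 CPM in IND and 9.3, 9.71 and 7.99 CPM in CTRL and 9.45, 12.8 and 10.4 CPM in IND at day 12. At day 14 it had 8.34, 8.15 and 9.18 CPM in CTRL and 12.6, 9.84 and 12.5 CPM in IND, where the groups no longer overlapped, but the difference of 0.45 ± 0.15 was not called (adjusted p = 0.0931). Its log2 fold changes on the earlier days lay between 0.07 and 0.28. DHX58, which encodes LGP2, a regulator of both other helicases, had 0.272, 0.133 and 0.385 CPM in CTRL and 0.107, 0.259 and 0.453 CPM in IND at day 6. At day 8, where it was not tested, the levels were 0.20, 0.241 and 0.161 CPM in CTRL and 0.283, 0.152 and 0.143 CPM in IND. The libraries of both groups were intermixed on these days, and at day 10 too, with 0.0402, 0.228 and 0.16 CPM in CTRL and 0.433, 0 and 0.225 CPM in IND. The gene had 0.508, 0.418 and 0.387 CPM in CTRL and 0.514, 0.497 and 0.675 CPM in IND at day 12 and 0.855, 0.878 and 1.02 CPM in CTRL and 1.07, 1.41 and 1.05 CPM in IND at day 14, with an adjusted p of at least 0.58 on the days tested.

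Among the transcription regulators, IRF1, which binds and activates interferon and interferon-stimulated promoters, was called on the same 4 days as TLR3. It was well expressed in CTRL, and at day 6 it had 6.68, 7.69 and 7.93 CPM in CTRL and 17, 11.2 and 11.6 CPM in IND (0.85 ± 0.18, adjusted p = 0.0117). At day 8 it had 7.12, 7.84 and 7.35 CPM in CTRL and 11.1, 15.3 and 25.5 CPM in IND (1.23 ± 0.27, adjusted p = 0.0232). The CTRL libraries varied little from day to day, whereas the IND libraries of day 8 were well spread among themselves. At day 10 IRF1 had 7.87, 6.67 and 7.8 CPM in CTRL and 24.5, 7.52 and 17.5 CPM in IND, with IND replicate 2 inside the range of CTRL (adjusted p = 0.244, or 1.52e-05 with a log2 fold change of 1.49 ± 0.15 without it). At day 12 it had 8.04, 9.62 and 7.75 CPM in CTRL and 29.6, 13.6 and 19.2 CPM in IND (1.30 ± 0.27, adjusted p = 0.0269) and 8.23, 6.25 and 7.92 CPM in CTRL and 20.2, 18.3 and 19.3 CPM in IND at day 14 (1.37 ± 0.14, adjusted p = 6.57e-05). Of the bases of IRF1's exons, 22.0% are shared with another gene.

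The other regulators differed less. STAT2, the subunit that carries the activation domain of the interferon-stimulated complex, had 59, 55.7 and 52.2 CPM in CTRL and 64.3, 63.7 and 67.8 CPM in IND at day 8 and was called by a narrow margin (0.24 ± 0.07, adjusted p = 0.0498), a call kept under 2 of 15 alternatives. On the other days its log2 fold changes lay between -0.07 and 0.20. IRF9, the DNA-binding subunit of the same complex, had log2 fold changes between -0.74 and 0.16 and was not called. IRF7, which amplifies interferon production, had log2 fold changes from -0.24 to 0.58 and was not called on any day with all libraries, but was at day 10 without IND replicate 2 (0.51 ± 0.14, adjusted p = 0.022 against 0.176 with it).

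The IFIT genes encode proteins that bind foreign RNA and block its translation, and 3 of the 4 were called on at least 1 day. IFIT3 was at 0, 0.0347 and 0.162 CPM at day 4. At day 6 it had 0.181, 0.293 and 0.457 CPM in CTRL and 0.616, 0.589 and 0.635 CPM in IND, a difference that was not called (adjusted p = 0.398). At day 8 it had 0.732, 0.77 and 0.695 CPM in CTRL and 2.08, 2.78 and 3.83 CPM in IND (1.99 ± 0.28, adjusted p = 9.11e-04). It is one of 3 members called at day 10, with 0.823, 0.411 and 0.738 CPM in CTRL and 4.84, 2.64 and 5.15 CPM in IND (2.68 ± 0.42, adjusted p = 0.0343). At day 12 it had 1.36, 1.34 and 1.93 CPM in CTRL and 5.14, 5.06 and 6.95 CPM in IND (1.89 ± 0.24, adjusted p = 0.00449) and 2.41, 1.93 and 2.07 CPM in CTRL and 8.56, 6.62 and 9.82 CPM in IND at day 14 (1.96 ± 0.21, adjusted p = 8.25e-05). The lowest IND library was above the highest CTRL library on all 5 days, and both groups were higher at day 14 than at day 6.

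IFIT1, which recognises the cap of foreign messenger RNA, was the most abundant of the family in FPKM, and at day 6 it had 7.05, 7.16 and 10.3 CPM in CTRL and 21.8, 15.8 and 15.1 CPM in IND (1.12 ± 0.18, adjusted p = 0.00175). At day 8 the levels were 8.54, 8.11 and 8.83 CPM in CTRL and 14.2, 17.9 and 29.7 CPM in IND (1.29 ± 0.25, adjusted p = 0.0115). At day 10 they were 8.15, 8.02 and 8.06 CPM in CTRL and 21.3, 6.27 and 18.5 CPM in IND, with IND replicate 2 below all CTRL libraries (adjusted p = 0.364, or 3.27e-06 without it). The CTRL libraries of day 10 were close together, and the spread came from IND. At day 12 IFIT1 had 9.96, 9.58 and 9.22 CPM in CTRL and 23.9, 18 and 18.5 CPM in IND (1.07 ± 0.16, adjusted p = 0.00654) and 8.71, 9.13 and 13 CPM in CTRL and 21.4, 18.4 and 29.4 CPM in IND at day 14 (1.17 ± 0.20, adjusted p = 0.00524). IFIT2, a partner of IFIT1 and IFIT3, was low in CTRL at day 8, and the levels were 0.0444, 0.12 and 0.0535 CPM in CTRL and 0.668, 0.785 and 1.24 CPM in IND (3.59 ± 0.53, 12.1-fold, adjusted p = 0.00113). At day 12 it had 0.339, 0.352 and 0.15 CPM in CTRL and 0.67, 1.54 and 1.52 CPM in IND (2.13 ± 0.48, adjusted p = 0.0376), 0.0201, 0.114 and 0.16 CPM in CTRL and 1.15, 1.12 and 0.899 CPM in IND at day 10 (adjusted p = 0.0923, or 9.57e-04 with a log2 fold change of 3.36 ± 0.56 without IND replicate 2) and 0, 0.632 and 0.244 CPM in CTRL and 1.98, 1.63 and 2.03 CPM in IND at day 14 (adjusted p = 0.0575). At day 6, with 0.0302, 0.0266 and 0.312 CPM in CTRL and 0.241, 0.189 and 0.272 CPM in IND, it was not tested. IFIT5, which binds RNA with a 5′ triphosphate, had log2 fold changes between 0.11 and 0.49 and was called on no day.

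The OAS enzymes make 2′-5′-linked oligoadenylates on double-stranded RNA, which activate the nuclease RNase L. OAS3, the largest of them, was called at days 8, 10 and 14. It had 0.0666, 0.361 and 0.321 CPM in CTRL and 0.745, 1.34 and 1.1 CPM in IND at day 8 (2.11 ± 0.51, adjusted p = 0.0187) and 0.221, 0.228 and 0.20 CPM in CTRL and 1.48, 2.94 and 2.13 CPM in IND at day 10 (3.32 ± 0.46, adjusted p = 0.0222). At day 14 it had 0.535, 0.737 and 0.366 CPM in CTRL and 1.28, 2.07 and 1.82 CPM in IND (1.65 ± 0.36, adjusted p = 0.0112). IND exceeded CTRL in each library pair on these days, and also at day 6, with 0.151, 0.319 and 0.24 CPM in CTRL and 0.429, 0.966 and 0.408 CPM in IND (adjusted p = 0.258), and day 12, with 0.508, 0.55 and 0.494 CPM in CTRL and 0.715, 4.0 and 1.92 CPM in IND (adjusted p = 0.0679). With all libraries OAS1 was tested at day 12 only, where it had 0.245, 0.022 and 0.0859 CPM in CTRL and 1.01, 1.95 and 0.641 CPM in IND (3.29 ± 0.69, adjusted p = 0.0298). Without day 10 IND replicate 2, OAS1 and OAS2 passed the filter on low counts at day 10 and were called (adjusted p = 0.0225 and 0.00375). OAS2 was at or under 3 counts in every CTRL library at days 8 to 14, and at day 12 its IND libraries, with 0.134, 0.562 and 0.0337 CPM, were on average at least 3.9-fold higher than what 3 counts in each CTRL library would give. This bound rested on IND replicate 2 and was 1.35-fold without it. OASL was at or under 3 counts in all 33 libraries.

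The MX genes encode large GTPases that trap viral components, and both were called. MX1 had 0.355, 0.674 and 0.267 CPM in CTRL and 0.976, 1.29 and 1.34 CPM in IND at day 8 (1.48 ± 0.39, adjusted p = 0.0271) and 0.903, 1.12 and 0.494 CPM in CTRL and 2.79, 3.87 and 1.62 CPM in IND at day 12 (1.72 ± 0.40, adjusted p = 0.043). The libraries of the groups overlapped at day 6, with 0.0907, 0.0798 and 0.264 CPM in CTRL and 0.456, 0.542 and 0.181 CPM in IND. They overlapped again at day 10, with 0.562, 0.548 and 0.22 CPM in CTRL and 1.05, 0.519 and 1.96 CPM in IND (adjusted p = 0.387, or 0.0102 without IND replicate 2), and not at day 14, with 1.02, 0.737 and 0.772 CPM in CTRL and 1.68, 1.92 and 1.12 CPM in IND (adjusted p = 0.136). MX2 was called at day 8, with 0.155, 0.0963 and 0.0802 CPM in CTRL and 0.565, 0.506 and 0.346 CPM in IND (2.05 ± 0.51, adjusted p = 0.0224), while at day 14 its log2 fold change was 0.07.

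ISG15 is conjugated to proteins by the ligases HERC5 and TRIM25 and removed by USP18. ISG15 was called at days 8 and 12. It had 5.42, 10.2 and 8.21 CPM in CTRL and 17.3, 17.5 and 19 CPM in IND at day 8 (1.19 ± 0.19, adjusted p = 0.00281) and 8.85, 9.22 and 10.0 CPM in CTRL and 28.7, 27.6 and 14 CPM in IND at day 12 (1.33 ± 0.25, adjusted p = 0.0204). USP18 was called on the same days, with 0.333, 0.626 and 0.187 CPM in CTRL and 1.34, 1.09 and 1.12 CPM in IND at day 8 (1.62 ± 0.42, adjusted p = 0.0244) and 0.546, 0.572 and 0.687 CPM in CTRL and 1.92, 2.57 and 1.32 CPM in IND at day 12 (1.69 ± 0.32, adjusted p = 0.0195). Neither ISG15 nor USP18 overlapped between the groups on those days. TRIM25, which also acts with RIG-I, rose at days 6 and 8 by smaller amounts (0.56 ± 0.14 and 0.38 ± 0.10, adjusted p = 0.0366 and 0.0259). HERC5 and HERC6 were called on no day, and their groups overlapped on each of them.

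PARP9 and PARP14 encode members of the ADP-ribosyltransferase family that modulate interferon signalling. PARP14 was called at days 8, 12 and 14. It had 4.37, 4.86 and 3.88 CPM in CTRL and 14.3, 11.6 and 11.6 CPM in IND at day 8 (1.53 ± 0.16, adjusted p = 1.07e-04), 8.34, 7.99 and 7.71 CPM in CTRL and 12.5, 20.1 and 19.6 CPM in IND at day 12 (1.12 ± 0.20, adjusted p = 0.015) and 11.1, 8.46 and 13 CPM in CTRL and 20.9, 21.6 and 23.2 CPM in IND at day 14 (1.02 ± 0.15, adjusted p = 8.63e-04). Its groups did not overlap at day 6 either, with 3.99, 3.75 and 2.4 CPM in CTRL and 5.04, 4.81 and 5.96 CPM in IND (adjusted p = 0.152). The same held at day 10, with 5.87, 4.16 and 5.97 CPM in CTRL and 16.8, 9.59 and 15.7 CPM in IND (adjusted p = 0.0629, or 8.93e-06 without IND replicate 2). PARP9 was called at days 8 and 10 (1.41 ± 0.20 and 1.10 ± 0.19, adjusted p = 8.60e-04 and 0.0427). At day 10 it had 3.05, 3.33 and 3.37 CPM in CTRL and 6.49, 7.0 and 7.4 CPM in IND, with all IND libraries above all CTRL libraries.

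The IFI genes are a mixed group named for their induction by interferon. IFI6 was called at days 8, 12 and 14. It had 9.39, 9.02 and 8.88 CPM in CTRL and 11.9, 17.3 and 17.8 CPM in IND at day 8 (0.80 ± 0.15, adjusted p = 0.00565), 14.2, 13.5 and 12.4 CPM in CTRL and 53.4, 63.2 and 29 CPM in IND at day 12 (1.87 ± 0.26, adjusted p = 0.00554) and 14.4, 19.2 and 13.9 CPM in CTRL and 24, 22.7 and 19.8 CPM in IND at day 14 (0.49 ± 0.14, adjusted p = 0.0485). The rise at day 12 was the largest of these. At day 10 IFI6 had 9.02, 9.23 and 8.84 CPM in CTRL and 22.8, 91.8 and 25.5 CPM in IND, and here IND replicate 2 was the highest of the group (adjusted p = 0.106 with it and 8.76e-07 without it). At day 6 it had 6.17, 6.04 and 8.7 CPM in CTRL and 11.2, 11.2 and 7.43 CPM in IND, with overlap (adjusted p = 0.202). IFI35, which binds the factor NMI, was called at days 8 and 12 (1.45 ± 0.24 and 1.27 ± 0.29, adjusted p = 0.00212 and 0.0393). IFI44L was at or under 3 counts in every library of both groups at days 6 and 8. At day 10 its IND libraries, with 0.186, 1.38 and 0.695 CPM, were on average at least 12-fold above 3 counts in each CTRL library, or 7.0-fold without IND replicate 2, and at day 12 it was called, with 0.301, 0.132 and 0.279 CPM in CTRL and 1.01, 3.05 and 1.11 CPM in IND (2.85 ± 0.55, adjusted p = 0.0204). IFI16 was called on no day, with log2 fold changes from -0.16 to 1.02, nor was IFI27, a small mitochondrial protein, with -0.02 to 0.74.

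BST2, the most abundant member, rose by small amounts. It had 199, 194 and 222 CPM in CTRL and 293, 302 and 236 CPM in IND at day 6 (0.45 ± 0.11, adjusted p = 0.0237), 209, 239.8 and 223 CPM in CTRL and 243, 307 and 354 CPM in IND at day 8 (0.44 ± 0.12, adjusted p = 0.0407) and 207, 228 and 174 CPM in CTRL and 281, 259.8 and 249 CPM in IND at day 14 (0.38 ± 0.10, adjusted p = 0.0347). At day 10 it had 208, 228 and 203 CPM in CTRL and 280.3, 375 and 260.1 CPM in IND and 189, 221 and 219 CPM in CTRL and 474, 239 and 271 CPM in IND at day 12. The CTRL and IND libraries did not overlap on any day, but the wide spread of IND at days 10 and 12 left those differences uncalled (adjusted p = 0.193 and 0.174). Without IND replicate 2 the difference at day 10 was called (0.34 ± 0.07, adjusted p = 0.0043). TRIM22, a ubiquitin ligase that restricts several viruses, was called at days 8 and 14 (1.13 ± 0.34 and 0.99 ± 0.24, adjusted p = 0.0465 and 0.0193). SAMD9, a restriction factor of poxviruses, was called at day 14, with 0.481, 0.176 and 0.447 CPM in CTRL and 1.07, 1.07 and 1.1 CPM in IND (1.54 ± 0.43, adjusted p = 0.0406).

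**Figure D2:**
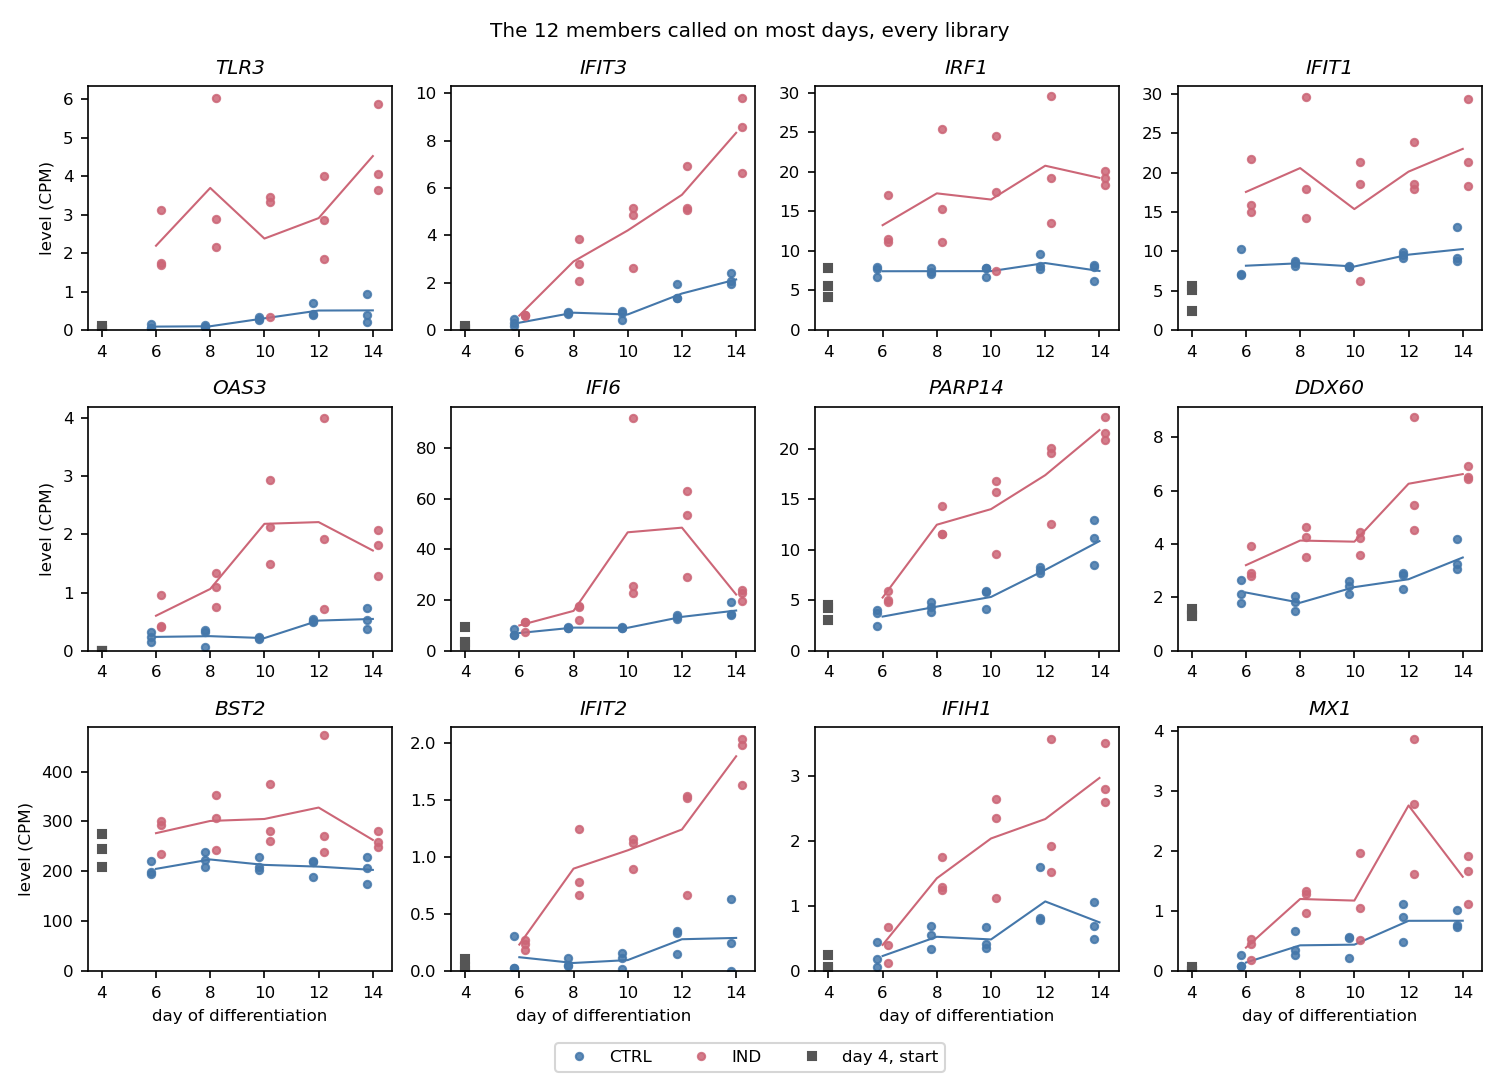
CPM of 12 members in every library, by day of differentiation, for day 4, CTRL and IND libraries (points) with group means (lines). TLR3 lies between 1.70 and 6.05 CPM in all IND libraries except day 10 IND replicate 2, and below 1 CPM in all CTRL libraries.

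The genes of nucleotide and RNA metabolism were called on no day. They are CMPK2, a mitochondrial nucleotide kinase, RSAD2, which encodes viperin and makes a chain-terminating nucleotide, SAMHD1, which degrades deoxynucleotides, and the exonuclease ISG20. RSAD2 had log2 fold changes of 1.04, 0.92, 1.17 and 1.10 at days 8 to 14 with groups that did not overlap, and adjusted p of 0.121, 0.424, 0.0594 and 0.0805. SAMHD1 had log2 fold changes between 0.03 and 0.47, and CMPK2 between 0.37 and 0.87. EPSTI1, an interferon-induced gene of epithelial and stromal cells, overlapped between the groups on all 5 days and LGALS3BP on all but day 6, and neither was called. XAF1, a promoter of cell death, had at most 5 counts in a library. SAMD9L, the neighbour and relative of SAMD9, had at most 3 counts in each CTRL library at day 10, where IND, with 0.433, 0 and 0.143 CPM, was on average at least 3.05-fold above 3 counts per CTRL library, and 1.14-fold without IND replicate 1. IFI44, the neighbour of IFI44L, was likewise at least 3.45-fold higher at day 12, with 0.112, 0.432 and 0.101 CPM in IND, and 1.71-fold without IND replicate 2.

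Over the 5 days together, the mean difference between IND and CTRL was tested in 1 fit of the 30 libraries after day 4. In it 30 of 41 tested members were called higher, against 11.8% of all genes, and 0 lower, against 12.4%. At an unadjusted p under 0.05, 35 members differed, of which IRF9 was lower, and DESeq2 also called 0 lower. The largest mean log2 fold changes among members with no group at or under 3 counts were those of TLR3 (3.68 ± 0.28, 12.9-fold, adjusted p = 3.50e-11), IFIT2 (2.53 ± 0.34, adjusted p = 1.37e-06), OAS3 (2.09 ± 0.24, adjusted p = 8.22e-08) and IFIT3 (1.88 ± 0.14, adjusted p = 2.17e-11). IFIT2, OAS3 and IFIT3 lay within 2 SE of each other, and TLR3 lay above OAS3 and IFIT3 by more than 2 SE of each. IRF1 and IFIT1 differed by 1.17 ± 0.13 and 1.10 ± 0.13 and BST2 by 0.47 ± 0.08, smaller differences that were also called (adjusted p = 1.10e-07, 1.86e-07 and 3.84e-05).

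Members called on no single day but in the mean were SAMHD1 (0.27 ± 0.06), RSAD2 (0.75 ± 0.18), CMPK2 (0.60 ± 0.16), IFI16 (0.51 ± 0.13), IFI27 (0.37 ± 0.10) and IRF7 (0.28 ± 0.09), with adjusted p between 0.00101 and 0.0202, together with OAS2 and SAMD9L, which were too low for a fold. DDX58 (0.21 ± 0.09, adjusted p = 0.0844), IFIT5 (0.22 ± 0.10, 0.0913), STAT2 (0.10 ± 0.04, 0.0976), LGALS3BP (0.13 ± 0.06, 0.106), IRF9 (-0.26 ± 0.12, 0.133), HERC5 (0.17 ± 0.14, 0.456), HERC6 (0.11 ± 0.11, 0.534), ISG20 (0.30 ± 0.26, 0.457), DHX58 (0.28 ± 0.28, 0.523), EPSTI1 (0.11 ± 0.13, 0.63) and IFI44 were not called. Without day 10 IND replicate 2, an alternative chosen after seeing the data, 32 members were called, and DDX58 and IFIT5 were the additions (adjusted p = 0.0281 and 0.0247). Over all genes, 2952 of 23216 tested were then higher and 3483 lower. The median mean effect over the 35 members with no group at or under 3 counts was 0.69.

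Whether the effect of induction differed between days was tested with the 4 interaction terms of day and induction. Of 41 members, 0 passed in edgeR, against 2.38% of all genes, while 8 had an unadjusted p under 0.05 and DESeq2 called 3 (IFI6, ISG15 and IFI44L). IFI6 had the smallest adjusted p, 0.0524, and 0.00862 without day 10 IND replicate 2. The larger number of calls at day 8 than at day 6 or 10 is thus not shown to be a difference in the size of the effect for most members.

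Day 10 IND replicate 2 decided the count of that day. With it 3 members were called, IFIT3, OAS3 and PARP9, and without it 22 were, these 3 included. The other 19 were TLR3, IFIH1, DDX60, IRF1, IRF7, IFIT1, IFIT2, IFI6, IFI35, OAS1, OAS2, MX1, MX2, ISG15, USP18, TRIM25, PARP14, BST2 and SAMD9, with adjusted p between 8.76e-07 and 0.0485 in edgeR. Calls rose over all genes too. With the library, 170 of 19858 genes tested were called higher and 234 lower. Without it, 1804 of 20650 were higher and 1964 lower. ISG20 (-0.40 with it and 0.15 without it), HERC5 (-0.23 and 0.10) and EPSTI1 (0.23 and -0.02), called neither way, changed the sign of their log2 fold change. The library was below both other IND libraries in 25 members and above both in 11. In the remaining 7 it lay between them or, in OASL, IFI44 and XAF1, tied with another IND library at 0 CPM. Among those below were TLR3 (0.346 CPM against 3.46 and 3.33), IRF1 (7.52 against 24.5 and 17.5) and IFIT1 (6.27 against 21.3 and 18.5). Among those above were IFI6 (91.8 CPM against 22.8 and 25.5), ISG15 (46.7 against 16.9 and 19.5), MX2 (2.77 against 0.556 and 0.695) and BST2 (375 against 280.3 and 260.1). Its FOXL2 level, 290.2 CPM, was like that of the others. The members thus did not move together in it, as the plot of single libraries of day 10 shows. The same library had the highest summed level of the immune markers, 16.6 CPM against 1.60 to 11.2 CPM in the other 32. In it CD163 was at 10.6 CPM, CSF1R at 2.16, PTPRC at 1.86 and ITGAM at 0.951 CPM, while CD14, CD68 and TYROBP were at 0 CPM. The part of any immune cells or of the library's depth in the members' levels was not tested.

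**Figure D3:**
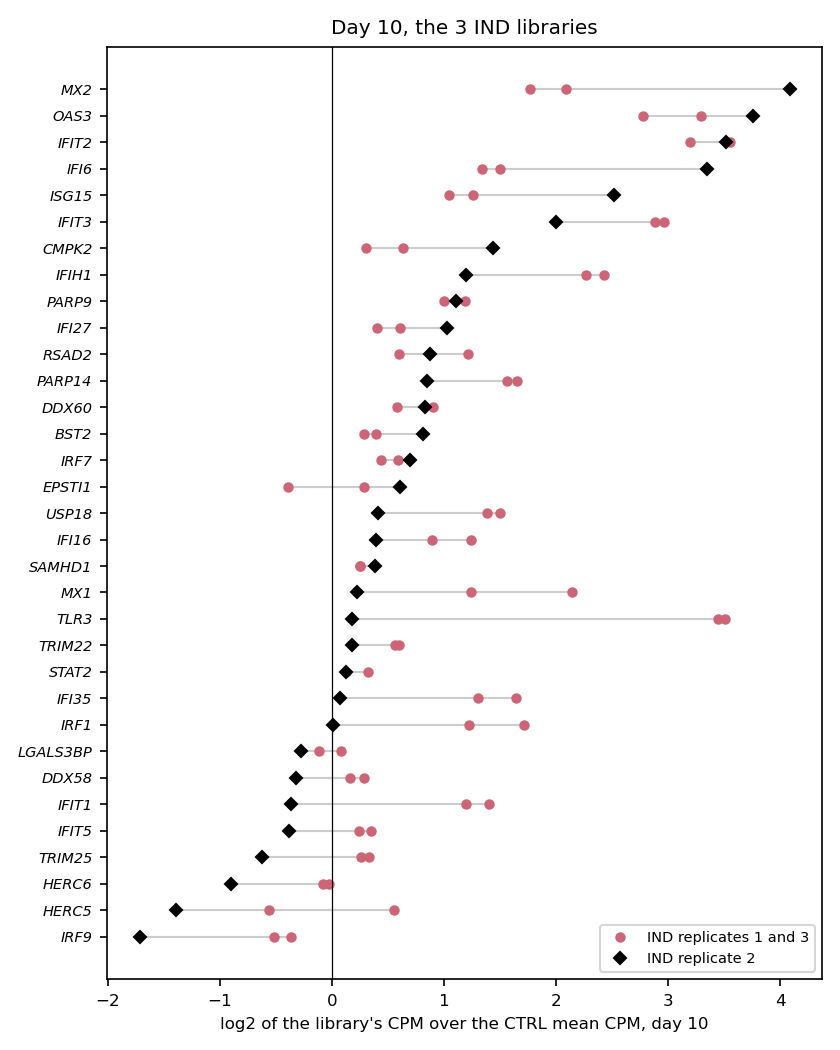
Log2 ratio of each day 10 IND library to the mean of the 3 CTRL libraries of that day, for 33 members. Replicates 1 and 3 lie close together for most members, while replicate 2 lies apart, below them for TLR3, IRF1 and IFIT1 and above them for IFI6, ISG15 and MX2.

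IND libraries of other days also differed member by member. At day 12 IND replicate 1 was the highest of its group in IRF1, IFIT1 and BST2, whereas replicate 2 was the highest in MX1, OAS3, IFI44L and DDX60. Leaving out single libraries moved the day 12 count to 5 without CTRL replicate 1, 4 without CTRL replicate 2, 4 without CTRL replicate 3 and 5 without IND replicate 2. Over all genes 1080 were called at day 12, and 508, 496, 417 and 590 without these libraries in turn. The day 8 count fell to 9, 10 and 11 without CTRL replicate 1, CTRL replicate 3 and IND replicate 2. Calls over all genes at day 8 went from 2752 to 1382, 1321 and 1513 in the same order. The day 6 count was 2 without CTRL replicate 1 and 3 without IND replicate 2, and the day 14 count was 7 without IND replicate 3. Calls over all genes then went from 700 to 402 and 348 at day 6 and from 1606 to 905 at day 14. At day 10, leaving out CTRL replicate 1, 2 or 3 or IND replicate 1 or 3 left 0 calls in edgeR with 2 libraries in a group, and between 11 and 14 members at an unadjusted p under 0.05. Over all genes these settings left between 11 and 72 calls, against 404 with every library.

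To see how the members behaved over differentiation without induction, CTRL was compared with day 4 (DIFF). The 5 comparisons share the day 4 libraries, so their counts are not independent. At day 6, 5 of 27 tested members were called higher (11.0% of all genes) and 1 lower (10.6%). At day 8, 9 of 28 were higher (18.1%) and 2 lower (18.9%), and at day 10, 14 of 30 were higher (23.1%) and 1 lower (22.0%). At day 12, 20 of 33 were higher (24.4%) and 0 lower (23.8%), with 1 lower at an unadjusted p under 0.05 in edgeR and 1 in DESeq2. At day 14, 20 of 33 were higher (24.6%) and 2 lower (22.9%). With library totals in place of TMM normalization the median of all genes moved by 0.13 to 0.20, and the members split into 6 higher and 0 lower, 11 and 0, 18 and 1, 23 and 0, and 22 and 1 on the 5 days, so that no member was called lower at days 6 and 8. In all, 23 members were called higher than at day 4 on at least 1 day and 4 lower. The share of all genes called on at least 1 day was not counted, and on a single day it reached 24.6% higher and 23.8% lower.

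LGALS3BP showed the largest change among the abundant members. It had 31, 28.6 and 37.1 CPM at day 4, 156, 152 and 143 CPM at day 10 without induction and 233, 222 and 269 CPM at day 14 (2.91 ± 0.14 on the log2 scale, adjusted p = 1.13e-06). It was called on all 5 days, with no overlap at day 14. HERC6, a paralogue of HERC5, had 0.691, 0.52 and 1.07 CPM at day 4 and 4.06, 4.0 and 5.81 CPM at day 14 (2.60 ± 0.34, adjusted p = 2.47e-04). IFIT5 had 5.09, 4.68 and 4.24 CPM at day 4 and 14.5, 11.4 and 10.3 CPM at day 14 (1.37 ± 0.20, adjusted p = 4.39e-04). STAT2 had 36.8, 37.8 and 37.7 CPM at day 4 and 68, 58.1 and 67.4 CPM at day 14 (0.79 ± 0.11, adjusted p = 2.88e-04). HERC6, IFIT5 and STAT2 were also called on all 5 days, and LGALS3BP and these 3 were not among the members called in the mean IND effect. RSAD2 was at or under 3 counts in each day 4 library and was called at days 6, 10, 12 and 14, with CTRL at least 4.21, 5.23, 5.08 and 5.34-fold above 3 counts in each day 4 library.

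Several members called higher in IND also rose without induction. IFIT1, IFIT3 and IFIH1 were called higher than at day 4 on 4 days each, DDX60 on 3 and TLR3, OAS3 and MX1 on 2 each. IRF1, BST2, ISG15 and USP18, which were called higher in IND too, were called against day 4 on 0 days. TLR3 in CTRL was at least 2.95-fold above 3 counts in each day 4 library at day 10 and at least 4.91-fold at day 12. OAS3 was at least 5.01 and 5.28-fold and MX1 at least 8.13 and 8.14-fold higher at days 12 and 14. The members called lower were few. IFI16 was lower at days 8, 10 and 14 (-0.92 ± 0.29, -1.20 ± 0.26 and -0.67 ± 0.22, adjusted p = 0.037, 0.00496 and 0.0285), from 57.5, 80.3 and 44.8 CPM at day 4 to 23.7, 19.3 and 35.5 CPM at day 10, and its libraries overlapped with those of day 4 at days 8 and 14. ISG20 was lower at day 14 (-1.65 ± 0.49, adjusted p = 0.0202) and IFI35 at day 8 (-0.83 ± 0.29, adjusted p = 0.0486). TRIM25 was lower at day 6 (-0.56 ± 0.15, adjusted p = 0.0204) and higher at days 12 and 14 (0.62 and 0.69).

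The genes that make and receive interferon were examined beside the members. The 21 interferon genes were nearly silent. Of them 7 had no count in any library, 4 had more than 3 counts in a library, the largest count was 11, for IFNL3, and 0 had enough counts to be tested. IFNB1, the interferon most cells release on sensing viral RNA, had 1 count in 1 library. At this depth, interferon messenger RNA made briefly or in few cells could go undetected.

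The receptor subunits IFNAR1 and IFNAR2 were called on no day, with mean effects of -0.02 ± 0.06 and -0.48 ± 0.26 (adjusted p = 0.812 and 0.198). Of 20 sensing and adaptor genes found, 16 were tested in the mean effect, with 3 higher (11.8% of all genes) and 1 lower (12.4%). They included MYD88, the adaptor of most toll-like receptors, and UNC93B1, which carries TLR3 to endosomes, both higher at day 8 (0.89 ± 0.18 and 0.65 ± 0.18, adjusted p = 0.0089 and 0.035), and the kinase TBK1, which was lower (-0.33 ± 0.10, adjusted p = 0.0478). Of 11 feedback regulators, 3 were called in the mean effect, all of them higher, while on single days SOCS3, an inhibitor of JAK kinases, was lower at days 12 and 14 (-0.56 ± 0.13 and -0.53 ± 0.11).

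A further 45 interferon-induced genes that are not members were also counted. They had 0 calls among 29 tested at day 6, where 9 had an unadjusted p under 0.05 in edgeR and DESeq2 called 1, while 1.29% of all genes were called higher and 2.37% lower. At day 8, 15 of 32 were higher (7.49% of all genes) and 2 lower (6.67%). At day 10, 2 of 33 were called, both of them higher (0.856%, with 1.18% lower), and without IND replicate 2 the counts were 20 higher and 4 lower of 36. Over all genes tested without that library, 1804 of 20650 were higher and 1964 lower. At day 12, 10 of 38 were higher (2.38%) and 1 lower (3.04%), and at day 14, 12 of 35 were higher (3.21%) and 2 lower (5.22%). In the mean effect 21 of 39 were higher (11.8%) and 4 lower (12.4%). GBP2, a guanylate-binding protein, was called on 4 days and had 2.18 ± 0.71 CPM in CTRL and 13.8 ± 0.717 CPM in IND at day 12, as means ± SD with n = 3 (2.67 ± 0.25, adjusted p = 0.00134). PARP12, which inhibits translation of viral RNA, was called on 4 days as well, with 1.04 ± 0.169 CPM in CTRL and 6.5 ± 2.19 CPM in IND at day 10 (2.65 ± 0.33, adjusted p = 0.0165). APOL1, DTX3L, the partner of PARP9, PARP10 and SP100, a nuclear body protein, were called on 3 days, and at day 14 their log2 fold changes were 3.92 ± 0.46, 0.79 ± 0.17, 1.21 ± 0.15 and 1.92 ± 0.27. WARS, the tryptophan tRNA ligase, which interferon-gamma induces, went the other way on 3 days, with 88.8 ± 11.3 CPM in CTRL and 50.5 ± 4.01 CPM in IND at day 8 (-0.80 ± 0.10, adjusted p = 3.98e-04). It was not the only one. At day 10 without IND replicate 2, IFITM1, IFITM2 and IFITM3 were lower too (-0.46 ± 0.10, -0.50 ± 0.07 and -0.40 ± 0.07, adjusted p = 0.00529, 3.01e-04 and 0.00114 in edgeR).

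Markers of other cell types moved with induction in these libraries. Of 6 endothelial markers, PECAM1 was higher in IND at days 8, 10 and 12, CDH5 and ERG at days 8 and 12 and TEK at day 8, while KDR was lower at day 6. Without day 10 IND replicate 2, CDH5, ERG and TEK were also called higher at day 10. The summed endothelial level was lower in IND at day 6, with 125.8 to 150.9 CPM in CTRL and 106.2 to 119.4 CPM in IND. At day 8 it was higher, with 128.1 to 139 CPM in CTRL and 159.7 to 173.8 CPM in IND. The groups overlapped at day 10 (87.9 to 104.9 and 82.4 to 148.8 CPM) and day 12 (71.7 to 89.5 and 75.4 to 83.1 CPM). They also overlapped at day 14 (58.7 to 98.8 and 86.3 to 125.3 CPM). The summed level of the 6 coelomic epithelial and gonadal markers was lower in IND at day 8, with 652.9 to 800.3 CPM in CTRL and 408 to 461 CPM in IND, and the neuronal sum at day 14 was 270.0 to 464.5 CPM in CTRL and 70.1 to 113.4 CPM in IND. Of the 11 immune markers, 7 were tested in the mean effect, with 2 higher and 1 lower, and the sum of the 11 was 2.73 to 4.38 CPM in CTRL and 4.95 to 11.2 CPM in IND at day 8. At that day edgeR called 0 of 5 tested, and DESeq2 called 1 higher and 1 lower. Single markers went different ways. CSF1R had 0.20, 0.433 and 0.455 CPM in CTRL and 0.0514, 0.0759 and 0.0611 CPM in IND. CD14 had 0.0888, 0.265 and 0.0802 CPM in CTRL and 0.283, 0.152 and 0.366 CPM in IND. At day 10 edgeR called 0 of 5 tested immune markers. Without IND replicate 2 it called 1 of 5, CD163, which was higher (2.15 ± 0.31, adjusted p = 3.84e-04). CD163 made up 3.92 of 5.36 CPM and 4.68 of 6.23 CPM of the immune sum in day 10 IND replicates 1 and 3. The defining leukocyte gene PTPRC reached 0.243 CPM in day 4 libraries, 0.187 CPM in CTRL and 1.86 CPM in IND, and CD3E never exceeded 3 counts. The summed level of the 4 intermediate mesoderm markers did not overlap between the groups from day 8 on. It was 14.4 to 16.4 CPM in CTRL and 23.6 to 38.2 CPM in IND at day 8, 10.2 to 13.8 and 26.3 to 43.6 CPM at day 10, 11.5 to 14.0 and 23.6 to 27.5 CPM at day 12 and 10.8 to 15.1 and 18.8 to 26.3 CPM at day 14. Of these markers OSR1 was higher at days 8 to 14 and LHX1 lower at days 8, 12 and 14, and also at day 10 without IND replicate 2. PAX2 and PAX8 were called on no day. The median log2 fold change of the tested markers was 0.37 at day 8 and -0.41, -0.27 and -0.74 at days 10, 12 and 14, so the list did not rise as a whole. The study used OSR1 as a marker of early supporting gonadal cells. The part of these cell types in the members' levels was not tested.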

How the data were processed

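RNA was sequenced from 33 libraries of 11 groups. Per the labels and the study's methods, the authors had reads trimmed with fastp 0.23.2, mapped to GRCh38 with HISAT2 2.0.5 and assigned to genes with featureCounts 1.5.0-p3, and deposited raw counts per gene. They also deposited FPKM, used here only for levels between genes and for alternatives with limma. Gene positions equalled those of GENCODE 29 for 58735 of 58735 genes. Groups were taken from the sample titles and characteristics.

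CPM (TMM normalization over the 33 libraries) and all tests come from the deposited counts, through edgeR 4.0.16 under R 4.3.3 (filterByExpr, TMM, robust quasi-likelihood fit on the 6 libraries of a comparison, or on the 30 after day 4 for the mean effect and the interaction), with Benjamini-Hochberg adjustment over all genes tested. The SE of a log2 fold change is its size divided by the square root of F. A group with at most 3 counts in each library was taken as at the floor, and a fold against it is a bound computed from 3 counts per library. Floors and depth cover counting error only. The tests were tested on simulated data. Alternatives were DESeq2 1.42.0, limma 3.58.1 on log2(FPKM + 1) and log2(FPKM + 0.1), other normalizations and filters, 1 fit over all libraries, the replicate number as a block and each library left out.

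The members and lists were chosen with earlier results of these data known. Members with full values are the 12 called on the most days, ties broken by the mean log2 fold change, and the RNA sensors. For DIFF they are up to 5 per direction, and from other lists those called on 3 or more days. MX2, ISG15, USP18, OAS1, OAS2, PARP9, IFI44L, SAMD9 and STAT2 at single days, and genes of other lists called on fewer days, were added after their values were seen. A gene that this rule names is withheld for evaluation and is not reported here.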

Additional observations from a re-analysis of the deposited data

How the results depend on the processing

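None of the 54 member-by-day calls changed direction under the alternatives run. They gave 797 values under alternatives, of which 584 were still called and 213 were not, 133 of these among the 324 values with a library left out, and 19 calls were kept throughout. The number of members called moved by over 1.5 times as follows. In IND at day 6 it was 5, and 2 with a log2 fold change of at least 1, 1 in the fit over all 33 libraries, 2 and 3 with limma on log2(FPKM + 1) and log2(FPKM + 0.1). At day 8 it was 20, and 13 with log2(FPKM + 1). At day 10 it was 3, and 13 with DESeq2 and 21 in the fit over all 33 libraries. At day 12 it was 14, and 6 with log2(FPKM + 1) and 7 with log2(FPKM + 0.1). In DIFF, day 6 gave 6, and 2 with a log2 fold change of at least 1 and 11 in the fit over all 33 libraries, day 8 gave 11, and 7 with a log2 fold change of at least 1, and day 14 gave 22, and 14 with a mean of at least 50 counts. For the interaction, edgeR called 0 members, with 8 at an unadjusted p under 0.05, and there were 3 with DESeq2, 1 with library totals only, 6 without a filter on low counts, 1 with a mean of at least 50 counts and 1 without day 10 IND replicate 2, which was chosen after seeing the data. IFI6 was among the members called in each of these.

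With 1 library left out, the counts in IND lay between 2 and 5 at day 6, 9 and 18 at day 8, 0 and 22 at day 10, 4 and 17 at day 12 and 7 and 12 at day 14. Calls over all genes lay between 348 and 915, 1321 and 4732, 11 and 3768, 417 and 1979 and 905 and 1987 on these days. In DIFF they lay between 3 and 8, 8 and 13, 8 and 18, 15 and 23 and 19 and 25 on the 5 days, with 3 at day 6 without CTRL replicate 3 and 8 and 9 at day 10 without CTRL replicates 1 and 2. With 1 replicate number left out of all 10 groups, the mean effect gave 24 to 27 and the interaction 0 in each case, with 3 to 7 at an unadjusted p under 0.05 in edgeR, and without day 10 IND replicate 2 alone they gave 32 and 1. The replicate numbers do not pair the samples: over 15 pairs of CTRL and IND libraries of the same day and number, their deviations correlated between -0.107 and 0.0781. With the replicate block, 0 members were called at day 10, 15 at an unadjusted p under 0.05 in edgeR, and 1 in the interaction, while the counts of the other days were 6, 19, 17 and 14 and that of the mean effect 30. With 3 wells per group and members such as IFI44, OAS2, OASL and XAF1 at a few counts, small differences were not detectable at this depth.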
